A study of Mus musculus with 6 samples.

Results

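Laminins, nidogens, the proteoglycans perlecan and agrin, and the integrin subunits that bind to the extracellular matrix were followed as 39 mouse genes: 14 ligands of the basement membrane (5 laminin alpha, 3 beta and 2 gamma chains, Nid1, Nid2, Hspg2 and Agrn) and 25 receptor genes (17 integrin alpha and 8 beta subunits). The rule for the genes uses name and function and no measured value, although earlier results of these data were known when it was set, and all 39 were found by their Ensembl identifiers among the 39179 genes counted. RNA was sequenced from the sensory epithelium of the cochlea, the hearing organ, and of the vestibule, the balance organ, in 3 libraries each, named cochlea 1 to 3 and vestibule 1 to 3. The mice were wild-type C57Bl/6J newborns at P0, with males and females pooled, and RNA came from 20 ears per tissue. Per the methods, the epithelia of both tissues were dissected from the same ears, so the tissues share animals. The animals were not treated. Any difference in dissection or RNA pool between the tissues cannot be told apart from tissue. Nothing in the labels says that the 3 libraries of a tissue came from separate pools of RNA, so the p-values measure only the spread between these libraries, which may be technical.

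A basement membrane is a thin sheet of matrix under an epithelium and around vessels, muscle fibres and glia. Laminins are trimers of an alpha, a beta and a gamma chain and form its first network, nidogens link that network to collagen IV, and perlecan and agrin are heparan sulfate proteoglycans anchored in it. Integrins are receptors of an alpha and a beta subunit that tie the cell's actin or keratin skeleton to this matrix. The alpha subunit largely sets the ligand: some bind laminins, some collagens, some the Arg-Gly-Asp (RGD) motif of proteins such as fibronectin, and some are used by leukocytes to hold on to other cells. In the inner ear, basement membranes lie under the sensory epithelia and around the vessels and nerve fibres that supply them.

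The counts on genes ranged from 24464483 to 33664793 per library, so that 1 CPM (a count scaled to the library total) stood for 24.5 to 33.7 counts. Markers of hair cells were detected in all 6 libraries, among them Pou4f3 at 43.5, 47.0 and 47.9 CPM in the cochlea and 67.5, 78.1 and 89.3 CPM in the vestibule. The collagen gene Col1a2, a marker of mesenchyme, reached 5251 CPM, so RNA of connective tissue was present beside that of the epithelium. Cochlea 3 stood apart in its skeletal muscle RNA: the 6 markers of that list summed to 232 CPM there, against 3.56 CPM in the lowest cochlear library and 4.75 to 19.4 CPM in the vestibule. Libraries also differed in long transcripts. The 1473 longest genes (median length 10.2 kb) had median log2 deviations from the tissue mean of -0.11, -0.08 and 0.23 in cochlea 1 to 3 and of 0.26, 0.03 and -0.26 in vestibule 1 to 3, and the 14 ligands (median length 9.38 kb) had -0.19, 0.03 and 0.10 and then 0.26, -0.11 and -0.13.

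Of the 39 genes, 36 had at least 1 CPM in 3 or more libraries and were tested, all 14 ligands and 22 of the 25 receptors. Tests used edgeR's quasi-likelihood model over all 14723 genes past this filter, with Benjamini-Hochberg adjustment and a threshold of 0.05. Log2 fold changes are vestibule minus cochlea throughout, so a positive value is higher in the vestibule. In bulk tissue, fewer cells of a type and less RNA per cell cannot be told apart. Over all genes tested 15.8% were higher in the vestibule and 11.6% were higher in the cochlea. Among the ligands, 7 of 14 were higher in the vestibule (Lama1, Lama3, Lamb2, Lamb3, Nid1, Nid2 and Hspg2), 2 were higher in the cochlea (Lamb1 and Lamc3) and 5 did not pass. Among the receptors tested, 6 of 22 were higher in the vestibule (Itga3, Itga5, Itgal, Itgam, Itga2b and Itgb2), 3 were higher in the cochlea (Itga6, Itga8 and Itgb6) and 13 did not pass. With library size alone in place of TMM scaling the split was 8 to 1 for ligands and 7 to 2 for receptors, and over all genes it was 2754 to 1251 in place of 2325 to 1711. Without cochlea 3 the split was 8 to 1 for ligands and 7 to 3 for receptors. The count of ligands higher in the cochlea was 0 without vestibule 2 and 1 without any other single library. Library size alone also shifted the median over all genes to 0.125 on the log2 scale, from 0.0048 with TMM.

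The median log2 fold change was 0.55 over the 14 ligands and 0.20 over the 22 receptors tested. All 3 vestibular libraries lay above all 3 cochlear ones for 9 ligands and 10 receptors tested, against 27.5% of all genes tested. All 3 cochlear libraries lay above for 2 ligands and 3 receptors, against 14.3% of all genes. Summed over the members, the ligands took 3331 to 4100.0 CPM in the cochlea and 4813 to 6298 CPM in the vestibule. The 25 receptors took 2112 to 2427 CPM in the cochlea and 1537 to 1727 CPM in the vestibule, and neither pair of ranges overlapped. The direction of the receptor sum rested on Itga8. Without it, a choice made after seeing the values, the other receptors took 1330.0 to 1478 CPM in the cochlea and 1496 to 1679.7 CPM in the vestibule, so that this sum was the higher one in the vestibule before TMM scaling. After TMM scaling its ranges overlapped, at 1402 to 1506 and 1421 to 1565 CPM, whereas those of the ligands and of all 25 receptors did not.

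**Figure D1:**
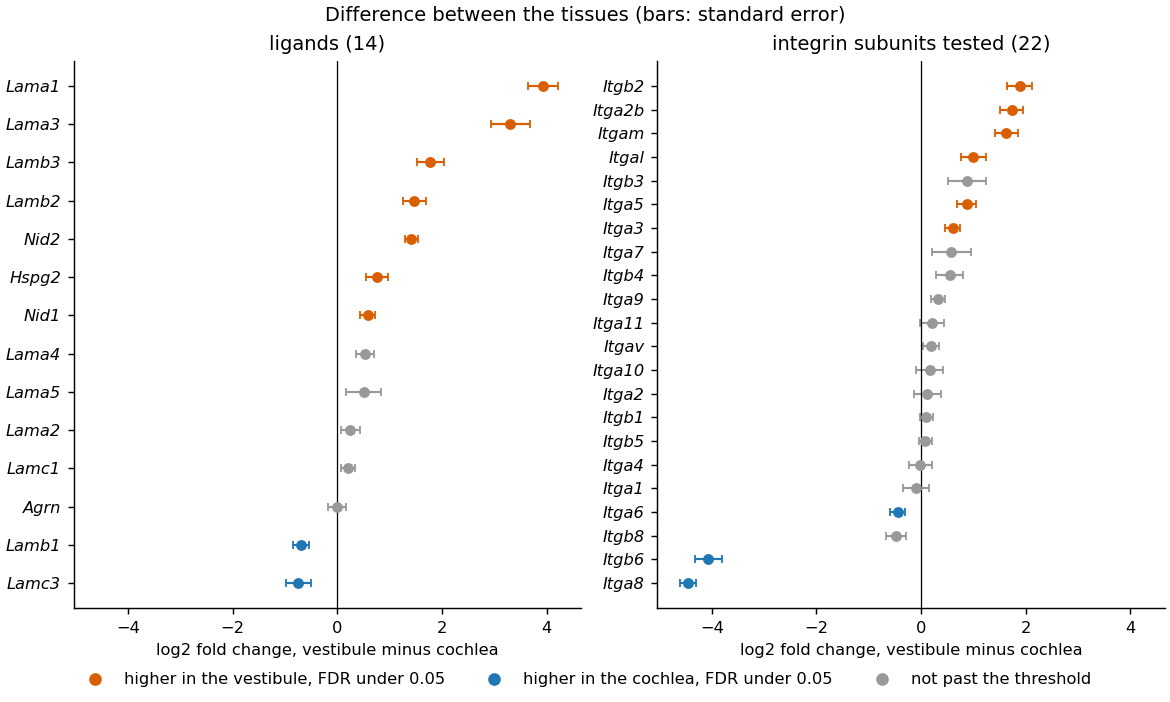
Log2 fold change of the 14 ligands (left) and the 22 tested integrin subunits (right), vestibule minus cochlea, with the standard error as bars. Orange points (13) were higher in the vestibule and blue points (5) in the cochlea at an FDR of 0.05, grey points (18) did not pass. Itga8, Itgb6 and Lama1 lie farthest from 0.

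The laminin alpha chains carry the globular end that cells bind. Lama1, the chain of the earliest embryonic basement membranes (ENSMUSG00000032796, chromosome 17 from 67697259 to 67822647 on the forward strand of GRCm38), had 3.07, 4.76 and 6.60 CPM in cochlea 1 to 3 and 95.1, 86.1 and 60.4 CPM in vestibule 1 to 3. The groups were far apart, and the lowest vestibular library was several times the highest cochlear one. Its log2 fold change was 3.93 (SE 0.28, edgeR adjusted p = 2.47e-05), a 15.3-fold difference and the largest among the ligands. Lama3, the alpha chain of laminins under stratified and glandular epithelia, had 1.02, 1.01 and 2.50 CPM in the cochlea and 21.4, 15.5 and 12.3 CPM in the vestibule. Every vestibular library was above every cochlear one, at levels close to the filter in the cochlea. The log2 fold change of Lama3 was 3.30 (SE 0.37, edgeR adjusted p = 0.000268).

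The other alpha chains did not pass the test. Lama5, the main alpha chain of many adult epithelia and vessels, had 144, 249 and 395 CPM in the cochlea and 509.9, 415 and 296 CPM in the vestibule, with overlapping groups and a log2 fold change of 0.50 (SE 0.33, edgeR adjusted p = 0.297). It had the highest mean RPKM of the alpha chains, at 23.1 ± 11.1 RPKM (CPM per kilobase of gene length, mean ± SD, n = 3) in the cochlea and 35.8 ± 9.46 RPKM in the vestibule. In cochlea 1 alone it was below Lama2 and Lama4, but the length behind the RPKM of Lama2 was 9692 bases, against 16338 exon bases in GENCODE vM21, and in CPM Lama5 was above Lama2 there. Its libraries were ordered within each tissue as the long transcripts were, with cochlea 1 and vestibule 3 lowest, and after removal of the length trend its log2 fold change was 0.46 (adjusted p = 0.166, range 0.0443 to 0.635 over all alternatives). Without cochlea 3 Lama5 passed, at 0.89 (adjusted p = 0.0443). Lama4, a chain of vessel walls and fat, had a log2 fold change of 0.53 (adjusted p = 0.0517), just short of the threshold although its libraries did not overlap. It passed under 7 of 17 alternatives (adjusted p 0.0267 to 0.129 over all 17), namely with library size alone, upper quartile scaling, no filter, a filter at 5 CPM, DESeq2, the likelihood ratio test of edgeR, and without vestibule 3. Lama2, the chain of muscle and Schwann cell basement membranes, had a log2 fold change of 0.25 (adjusted p = 0.337) with overlapping libraries.

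The beta chains split between the tissues. Lamb1, present in most embryonic laminins (ENSMUSG00000002900, chromosome 12 from 31265234 to 31329644 on the forward strand), had 513, 611 and 617 CPM in the cochlea and 459, 359 and 357 CPM in the vestibule. Lamb2, the beta chain of the neuromuscular synapse and the kidney filter (ENSMUSG00000052911, chromosome 9 from 108479736 to 108490530 on the forward strand), had 97.9, 136 and 192 CPM in the cochlea and 482, 409 and 397 CPM in the vestibule. The groups did not overlap for either gene, and the order of the tissues was opposite. Lamb1 had a log2 fold change of -0.69 (SE 0.15, edgeR adjusted p = 0.00978) and Lamb2 one of 1.47 (SE 0.23, edgeR adjusted p = 0.00152). The difference of Lamb1 did not pass without vestibule 2 (adjusted p = 0.0779, range 0.000110 to 0.0779 over all alternatives). Lamb3, which joins Lama3 in the laminin of epithelial anchoring points, was low, with 1.96, 2.01 and 1.64 CPM in the cochlea and 8.97, 7.40 and 4.75 CPM in the vestibule. All vestibular libraries were above the cochlear ones, and the log2 fold change was 1.78 (SE 0.26, edgeR adjusted p = 0.00121).

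**Figure D2:**
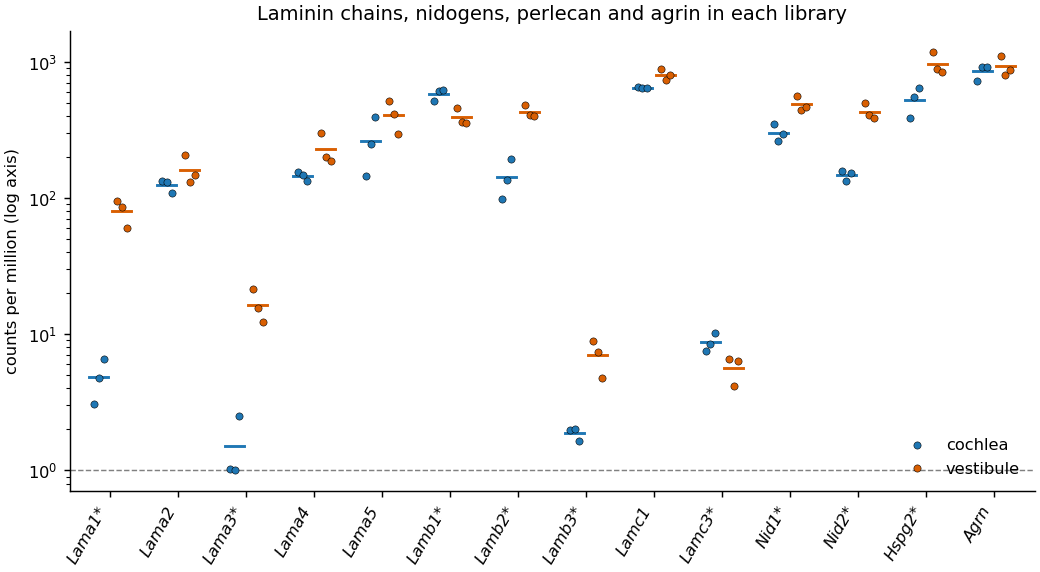
CPM (log axis) of the 14 ligands in the 3 cochlear libraries (blue) and the 3 vestibular libraries (orange), with short lines at the means and a dashed line at 1 CPM. Asterisks mark genes past the FDR of 0.05. Lama1 and Lama3 show the widest gaps, while the points of Lama2, Lama5 and Agrn overlap.

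The leading beta chain was Lamb1 in the cochlea and Lamb2 in the vestibule. In RPKM, Lamb2 over Lamb1 was 0.426 ± 0.110 in the cochlea against 1.94 ± 0.0805 in the vestibule (SD, n = 3). Lamb1 made up 74.3, 71.4 and 64.3% of the summed beta chain RPKM in cochlea 1 to 3 and 34.5, 32.7 and 33.4% in vestibule 1 to 3. Lamb2 therefore held the smaller share in all cochlear libraries and the larger share in all vestibular ones. A two-sided exact permutation test of the Lamb1 share gave p = 0.1, the smallest value that 3 libraries against 3 can give, so no such share can reach 0.05 in this design. In all 25 shares were compared, 15 of them at that value, and the smallest Benjamini-Hochberg adjusted p of these exact tests was 0.167. Among the alpha chains, Lama1 held 1.02% ± 0.193 of the summed RPKM in the cochlea and 10.5% ± 1.13 in the vestibule (exact permutation p = 0.1). The share of Lama5 was 31.9, 45.5 and 59.9% in the cochlea against 43.6, 47.3 and 40.4% in the vestibule, a cochlear spread that covered all vestibular values (exact permutation p = 0.8), and without cochlea 3 the sign of the difference in means turned, from -1.99 to 5.06 percentage points.

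**Figure D3:**
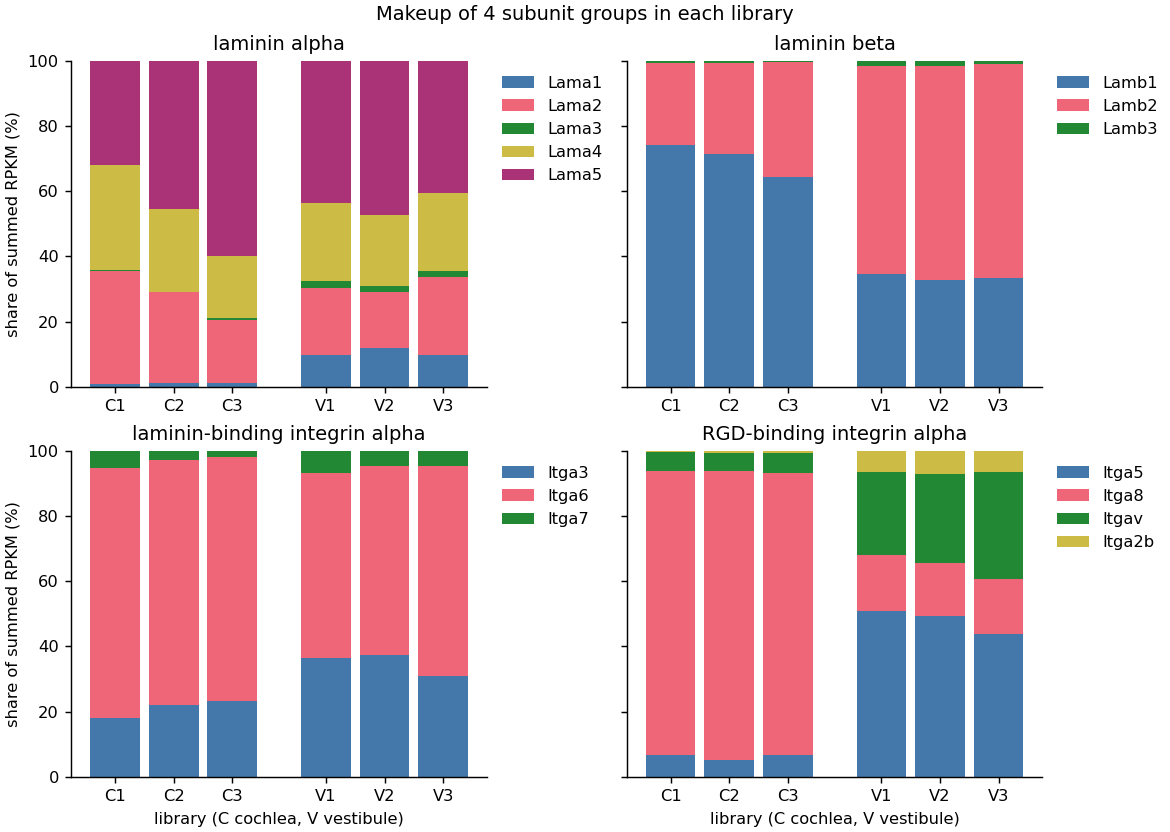
Share of each gene in the summed RPKM of its group, in percent, for laminin alpha chains, laminin beta chains, laminin-binding integrin alpha subunits and RGD-binding integrin alpha subunits, 1 bar per library (C cochlea, V vestibule). From the cochlear to the vestibular bars the shares of Lamb1 and Itga8 fall and those of Lamb2, Itga5 and Itgav rise. The level of Itgav itself did not pass the test between the tissues.

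Gamma chains complete the trimer and hold the site to which nidogens bind. Lamc1, the gamma chain of most laminins, was the most abundant laminin chain per length, at 78.0 ± 1.27 RPKM in the cochlea and 97.4 ± 9.59 RPKM in the vestibule (SD, n = 3). Its CPM were 656, 637 and 639.9 and then 887, 730.1 and 794. The vestibular libraries were the higher ones before TMM scaling, and the log2 fold change was 0.20 (SE 0.14, edgeR adjusted p = 0.323). Lamc3 had 7.56, 8.51 and 10.2 CPM in the cochlea and 6.56, 4.13 and 6.32 CPM in the vestibule. The groups were close but did not overlap, with a log2 fold change of -0.74 (SE 0.24, edgeR adjusted p = 0.0463). Lamc3 did not pass without any 1 of the 6 libraries (adjusted p 0.0527 to 0.197), with library size alone (adjusted p = 0.0864) or with a filter at 5 CPM (adjusted p = 0.0520), and the range over all alternatives was 0.0156 to 0.197.

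Nidogens and proteoglycans join the laminin network to the rest of the sheet. Nid2 (ENSMUSG00000021806, chromosome 14 from 19751265 to 19811787 on the forward strand) had 158, 133 and 153 CPM in the cochlea and 498, 405 and 386 CPM in the vestibule. The lowest vestibular value was well above the highest cochlear one. Its log2 fold change was 1.42 (SE 0.13, edgeR adjusted p = 0.000101), and 8.45% of its exon bases are shared with Rtraf on the other strand. Nid1 had 349, 260.1 and 293 CPM in the cochlea and 555, 444 and 467 CPM in the vestibule. The groups did not overlap, and the log2 fold change was 0.58 (SE 0.15, edgeR adjusted p = 0.0186). Nid1 did not pass without cochlea 2 (adjusted p = 0.0805) or without vestibule 1 (adjusted p = 0.0506), and its range over all alternatives was 0.00293 to 0.0805.

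Hspg2 encodes perlecan, the large proteoglycan of vessel, cartilage and epithelial basement membranes. It had 385, 552 and 636 CPM in the cochlea and 1174, 889 and 833 CPM in the vestibule. Every vestibular library was above every cochlear one, with a log2 fold change of 0.75 (SE 0.21, edgeR adjusted p = 0.0298). Without cochlea 1, cochlea 2, vestibule 1 or vestibule 2 the adjusted p was 0.0839, 0.0726, 0.0800 and 0.0639 in that order, and over all alternatives it was 0.00310 to 0.108. Agrn, the proteoglycan that gathers acetylcholine receptors at the neuromuscular synapse, had 725, 907 and 909 CPM in the cochlea and 1096, 804 and 866 CPM in the vestibule. It was among the 3 highest ligands per length, at 91.4 ± 11.4 RPKM and 99.5 ± 16.6 RPKM (SD, n = 3). The libraries overlapped and the log2 fold change was -0.003 (SE 0.17, edgeR adjusted p = 0.993), with a sign that changed with the scaling.

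Markers of the cells that lie on basement membranes differed between the tissues as well. Of 8 endothelial markers 7 were higher in the vestibule and 0 in the cochlea, against 15.8% and 11.6% of all genes tested, and their summed CPM were 91.3 to 159 in the cochlea against 430.4 to 616 in the vestibule. The 3 with the largest difference were Kdr (3.604), Pecam1 (1.77) and Esam (1.61) as log2 fold changes. Sums of the further lists are given as ranges over the cochlear and then over the vestibular libraries. Of 5 smooth muscle and pericyte markers tested 4 were higher in the vestibule and 1 in the cochlea (sums of 85.9 to 113 CPM and then 172 to 203 CPM), led by Myh11 (2.57), Acta2 (1.66) and Tagln (1.55). Myh11 had under 1 CPM in every cochlear library and entered the test only through the vestibule. Of 6 epithelial markers 4 were higher in the vestibule and 1 in the cochlea (sums of 1156 to 1310.3 CPM and then 1711 to 1738 CPM), led by Krt18 (1.71), Cldn3 (0.99) and Cdh1 (-0.94). Of 5 Schwann cell markers 1, Mbp (1.16), was higher in the vestibule and 0 in the cochlea (sums of 602 to 653 CPM and then 847 to 930.5 CPM). Mesenchymal markers had 3 of 8 higher in the vestibule and 2 in the cochlea (sums of 4889.8 to 5622 CPM and then 7582 to 8825 CPM), led by Lum (-2.51), Col1a1 (1.55) and Pdgfra (1.15). Col1a2 held the largest part, 2501, 1867 and 2269 CPM in the cochlea and 5251, 4617 and 5049 CPM in the vestibule. The mesenchymal sums therefore follow Col1a2 and not the list as a whole. None of the markers on these lists was at 0 in all 6 libraries, and their part in the results for laminins, nidogens and perlecan was not tested.

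Among the receptors, Itga8 had the largest difference of the 36 genes tested. Itga8 (ENSMUSG00000026768, chromosome 2 from 12106632 to 12301922 on the reverse strand) encodes the alpha subunit that joins Itgb1 in a receptor for nephronectin and is needed for growth of the kidney. It had 838, 782 and 949 CPM in cochlea 1 to 3 and 47.5, 40.5 and 39.9 CPM in vestibule 1 to 3. The lowest cochlear library was many times the highest vestibular one. Its log2 fold change was -4.45 (SE 0.15, edgeR adjusted p = 2.95e-06), a 21.8-fold difference. Per length, Itga8 reached 118 ± 11.8 RPKM in the cochlea, beside 116 ± 3.92 RPKM for its partner Itgb1, and 5.87 ± 0.582 RPKM in the vestibule, beside 135 ± 8.10 RPKM (SD, n = 3). The ratio of Itga8 to Itgb1 was thus 1.01 ± 0.0820 in the cochlea against 0.0434 ± 0.00304 in the vestibule. Npnt, which encodes nephronectin, had 207, 236 and 208 CPM in the cochlea and 275, 225 and 237 CPM in the vestibule, overlapping groups with a log2 fold change of 0.05 (adjusted p = 0.804). Exons of Itga8 share 5.05% of their bases with E030013I19Rik on the other strand.

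Itgb6 (ENSMUSG00000026971, chromosome 2 from 60598292 to 60722643 on the reverse strand), an epithelial partner of Itgav that releases active TGF-beta from its latent form, had 22.2, 32.5 and 41.1 CPM in the cochlea and 2.23, 1.87 and 2.08 CPM in the vestibule. The lowest cochlear library was well above the highest vestibular one. The log2 fold change was -4.07 (SE 0.26, edgeR adjusted p = 1.34e-05), a 16.8-fold difference. Its partner Itgav had 83.2, 71.4 and 102 CPM in the cochlea and 103, 100.3 and 113 CPM in the vestibule, which overlapped (log2 fold change 0.19, adjusted p = 0.384). The other beta subunits that can join Itgav did not pass. Apart from Itgb1, Itgb5 was the most abundant of them. Itgb5 had 147, 170.0 and 169 CPM in the cochlea and 194, 181 and 181 CPM in the vestibule. Per length this was 48.2 ± 3.82 and 55.3 ± 2.26 RPKM, and the log2 fold change was 0.08 (SE 0.12, edgeR adjusted p = 0.693). Itgb6 over Itgb5 in RPKM was 0.0923 ± 0.0220 in the cochlea against 0.00526 ± 0.000317 in the vestibule (SD, n = 3).

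Itgb3, which also pairs with Itga2b on platelets, had 24.6, 7.99 and 9.96 CPM in the cochlea and 30.5, 26.0 and 27.3 CPM in the vestibule. Cochlea 1 was far above the other cochlear libraries, and the groups did not overlap. Its log2 fold change was 0.87 (SE 0.36, edgeR adjusted p = 0.109), and without cochlea 1 it was 1.50 (adjusted p = 0.000905, range 0.000905 to 0.296 over all alternatives). It also passed with no filter, DESeq2 and limma-voom. Itgb8, another TGF-beta releasing partner of Itgav, had a log2 fold change of -0.48 (adjusted p = 0.102) with overlapping libraries, and passed without cochlea 3 at -0.64 (adjusted p = 0.0252, range 0.0252 to 0.363 over all alternatives). Shares were taken among Itgb3, Itgb5, Itgb6 and Itgb8, without Itgb1. Itgb5 held 81.0% ± 2.74 of their summed RPKM in the cochlea and 86.8% ± 1.09 in the vestibule (exact permutation p = 0.1), and Itgb6 held 7.51% ± 1.96 and 0.457% ± 0.0229. The difference in the mean share of Itgb5 was 5.81 percentage points in RPKM and 10.3 in CPM.

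Of the RGD-binding alpha subunits other than Itga8, Itga5 and Itga2b were higher in the vestibule and Itgav did not pass. Itga5, the classical fibronectin receptor subunit (ENSMUSG00000000555, chromosome 15 from 103344286 to 103366763 on the reverse strand), had 38.2, 26.9 and 44.9 CPM in the cochlea and 83.5, 73.6 and 61.3 CPM in the vestibule. The groups did not overlap, and the log2 fold change was 0.87 (SE 0.18, edgeR adjusted p = 0.00689). Fn1, which encodes fibronectin, had 541, 1060.2 and 952 CPM in the cochlea and 819, 696 and 597 CPM in the vestibule with a log2 fold change of -0.41 (adjusted p = 0.276). Of the summed RPKM of the 4 RGD-binding subunits, Itga8 held 87.2, 88.9 and 86.4% in cochlea 1 to 3 and 17.4, 16.3 and 17.1% in vestibule 1 to 3. Itga5 held 6.16% ± 0.938 and 47.9% ± 3.69, and Itgav held 5.88% ± 0.390 and 28.6% ± 3.81 (SD, n = 3, cochlea then vestibule). The leading subunit was therefore Itga8 in all cochlear libraries and Itga5 in all vestibular ones (exact permutation p = 0.1 for the Itga8 share and 0.1 for the Itga5 share, again the smallest value possible). In the vestibule this order rests on the division by length, since in CPM Itgav was above Itga5 in all 3 vestibular libraries (103, 100.3 and 113 against 83.5, 73.6 and 61.3).

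**Figure D4:**
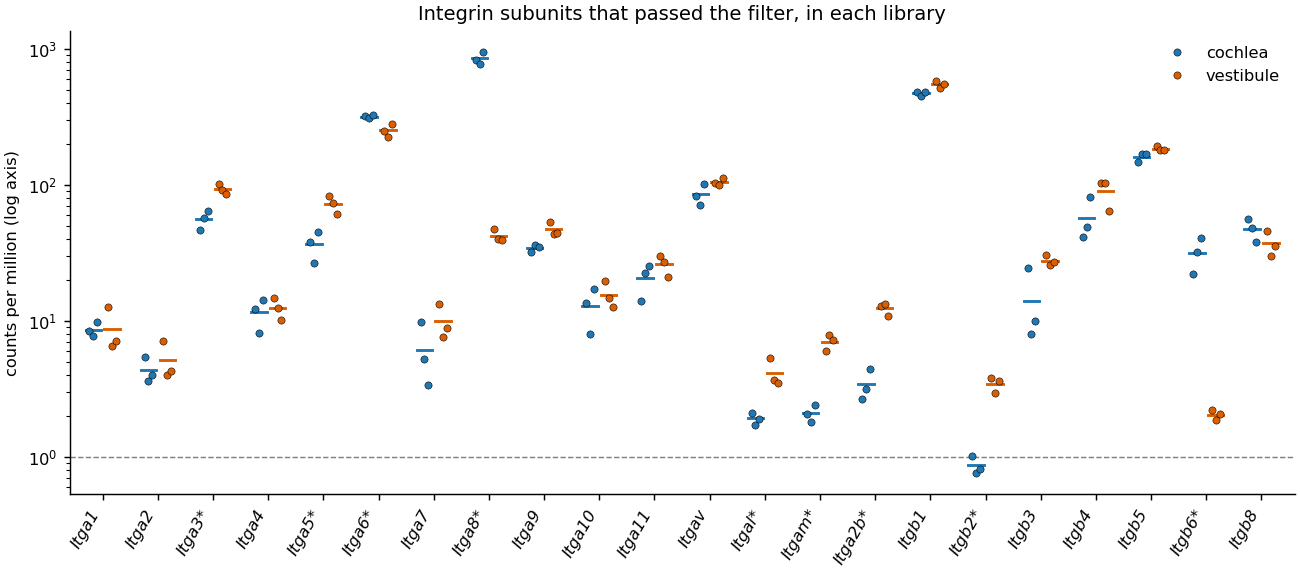
CPM (log axis) of the 22 integrin subunits that passed the filter, in the 3 cochlear libraries (blue) and the 3 vestibular libraries (orange), with short lines at the means and a dashed line at 1 CPM. Asterisks mark genes past the FDR of 0.05. Itga8 and Itgb6 show the widest gaps, with the cochlear points on top, and all other subunits called differ by less.

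Of the 3 laminin-binding alpha subunits, 1 was higher in each tissue and 1 did not pass. Itga6, the subunit of hemidesmosomes and of many progenitor cells (ENSMUSG00000027111, chromosome 2 from 71745616 to 71858416 on the forward strand), had 320.1, 309.6 and 327 CPM in the cochlea and 252, 225 and 282 CPM in the vestibule. Itga3, its relative in epithelia and the kidney filter (ENSMUSG00000001507, chromosome 11 from 95044474 to 95076801 on the reverse strand), had 47.2, 57.8 and 64.3 CPM in the cochlea and 102, 91.8 and 85.8 CPM in the vestibule. Neither pair of groups overlapped, with Itga6 higher in the cochlea and Itga3 higher in the vestibule. Itga6 had a log2 fold change of -0.45 (SE 0.14, edgeR adjusted p = 0.0459) and Itga3 one of 0.603 (SE 0.14, edgeR adjusted p = 0.0147). Itga6 held 75.6% ± 1.06 of the summed RPKM of Itga3, Itga6 and Itga7 in the cochlea and 59.8% ± 4.10 in the vestibule (SD, n = 3, exact permutation p = 0.1). Itga7, the subunit of muscle fibres, had 9.85, 5.31 and 3.39 CPM in the cochlea and 13.4, 7.63 and 8.99 CPM in the vestibule, which overlapped (log2 fold change 0.58, adjusted p = 0.289). Cochlea 3, the library with the most skeletal muscle RNA, had the lowest Itga7 value.

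Itga6 was the called receptor nearest the threshold. It passed without vestibule 3 and did not pass without any 1 of the other 5 libraries (adjusted p 0.0605 to 0.248), with library size alone (adjusted p = 0.0770), with upper quartile scaling (adjusted p = 0.0568), with a filter at 5 CPM (adjusted p = 0.0549) or with the length trend removed (adjusted p = 0.0823), a range of 0.0162 to 0.248 over all alternatives. Itga3 did not pass without vestibule 2 (adjusted p = 0.0513, range 0.00322 to 0.0705 over all alternatives). Itgb4, the partner of Itga6 in hemidesmosomes, had 41.3, 48.9 and 81.6 CPM in the cochlea and 104, 105 and 65.2 CPM in the vestibule. The groups overlapped in 1 library of each tissue, cochlea 3 and vestibule 3, and the log2 fold change was 0.55 (SE 0.26, edgeR adjusted p = 0.154). Without cochlea 3 it was 0.87 (adjusted p = 0.0163, range 0.0163 to 0.389 over all alternatives).

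Itgb1 pairs with most of the alpha subunits named here and had the highest mean RPKM of the 36 genes in the vestibule, and the second highest after Itga8 in the cochlea. Its CPM were 485, 456 and 481 in the cochlea against 579.9, 515 and 559 in the vestibule. The vestibular libraries were the higher ones before TMM scaling, and the log2 fold change was 0.1 (SE 0.13, edgeR adjusted p = 0.6003). The collagen-binding alpha subunits had overlapping libraries and none of the 4 passed. Their log2 fold changes were -0.101 (adjusted p = 0.803) for Itga1, 0.12 (adjusted p = 0.770) for Itga2, 0.16 (adjusted p = 0.679) for Itga10 and 0.21 (adjusted p = 0.530) for Itga11. Itga11, a fibroblast collagen receptor, held the largest mean share of their summed RPKM, 33.8, 54.0 and 45.8% in the cochlea against 43.7, 52.1 and 46.7% in the vestibule (exact permutation p = 0.8). The difference in the mean share was 2.97 percentage points and turned to -2.40 without cochlea 1. The length behind the RPKM of Itga1 was 5968 bases, against 18599 exon bases in GENCODE vM21, and that of Itga2 was 4198 against 7133 bases, so these shares rest on the authors' choice of length. Itga4 and Itga9, which bind fibronectin variants, VCAM and tenascins, had log2 fold changes of -0.01 (adjusted p = 0.969) and 0.33 (adjusted p = 0.0991), and the libraries of Itga9 did not overlap. Itga9 passed with library size alone (adjusted p = 0.0354, range 0.0354 to 0.274 over all alternatives).

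Integrins of blood cells formed the remaining group, all at under 15 CPM. Itgam, the alpha subunit of macrophages and neutrophils, had 2.08, 1.81 and 2.43 CPM in the cochlea and 6.06, 7.90 and 7.26 CPM in the vestibule. Itgal, the alpha subunit of lymphocytes, had 2.13, 1.74 and 1.92 CPM in the cochlea and 5.35, 3.70 and 3.53 CPM in the vestibule. Itgb2, the beta subunit that both need, had 1.02, 0.764 and 0.821 CPM in the cochlea and 3.80, 2.96 and 3.65 CPM in the vestibule. No library of 1 tissue overlapped the other tissue for any of these genes. Their log2 fold changes were 1.63 (SE 0.22, edgeR adjusted p = 0.000782) for Itgam, 1.001 (SE 0.23, edgeR adjusted p = 0.0125) for Itgal and 1.88 (SE 0.25, edgeR adjusted p = 0.000639) for Itgb2. Itgal did not pass without cochlea 2 (adjusted p = 0.0507, range 0.00143 to 0.0507 over all alternatives). Itga2b, the platelet and megakaryocyte subunit (ENSMUSG00000034664, chromosome 11 from 102453297 to 102470122 on the reverse strand), had 2.66, 3.19 and 4.45 CPM in the cochlea and 13.0, 13.4 and 10.95 CPM in the vestibule. These groups did not overlap either, and the log2 fold change was 1.73 (SE 0.22, edgeR adjusted p = 0.000586).

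All 11 macrophage and leukocyte markers were higher in the vestibule and 0 in the cochlea, against 15.8% and 11.6% of all genes tested. Their summed CPM were 128 to 146 in the cochlea against 448 to 509 in the vestibule, and none was at 0 in any library. The largest differences among them were those of C1qb (2.04), Tyrobp (1.94) and Ptprc (1.91) as log2 fold changes. Of 6 platelet and megakaryocyte markers 3 were tested, and 1, Pf4, was higher in the vestibule (6.05, 6.42 and 6.71 CPM in the cochlea and 47.6, 69.1 and 75.2 CPM in the vestibule, log2 fold change 3.21, adjusted p = 1.91e-05). The platelet receptor genes Gp1ba and Gp1bb, which were tested, had log2 fold changes of 0.28 (adjusted p = 0.626) and -0.28 (adjusted p = 0.505). Exons of Gp1bb share 91.14% of their bases with Sept5 on the same strand, so its value is uncertain. Of the 3 under the filter, Ppbp had 1, 6 and 5 counts in the cochlea and 22, 46 and 54 counts in the vestibule, groups that did not overlap. Gp6 was at 0 in 5 of the 6 libraries and Gp9 had at most 0.156 CPM. The summed platelet list was 8.99 to 12.6 CPM in the cochlea and 53.7 to 81.0 CPM in the vestibule. Most of this sum was Pf4 in both tissues. The part of these cells in the results for Itgam, Itgal, Itgb2 and Itga2b was not tested.

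**Figure D5:**
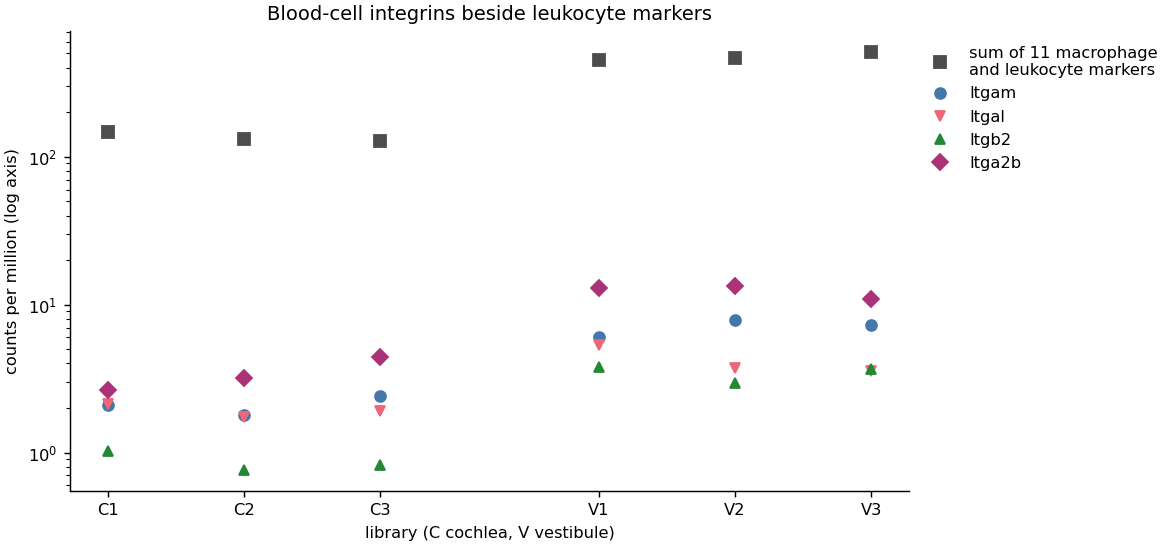
CPM (log axis) of Itgam, Itgal, Itgb2 and Itga2b and the summed CPM of 11 macrophage and leukocyte markers, in each library (C cochlea, V vestibule). All 5 series lie higher in the 3 vestibular libraries than in the 3 cochlear ones.

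The 3 members under the filter were also integrins of blood cells. Itgb7, the beta subunit of lymphocytes that home to the gut, had 10, 13 and 13 counts in the cochlea against 39, 29 and 21 in the vestibule, and reached 1 CPM in 2 libraries. Itgae, which joins Itgb7 to bind E-cadherin, had 6, 5 and 3 counts and then 14, 10 and 8. Itgax, the subunit of dendritic cells, had 0, 2 and 0 counts in the cochlea against 1, 3 and 5 in the vestibule, so it was at or under the limit that a count of 0 allows (3 counts) in 5 of the 6 libraries. In a fit of all 24771 genes with a count, none of the 3 passed, and the adjusted p was 0.0519 for Itgb7 (log2 fold change 1.10), 0.276 for Itgae (0.96) and 0.338 for Itgax. With the filterByExpr filter of edgeR, which kept 16258 genes and only Itgb7 of the 3, Itgb7 passed (log2 fold change 1.11, adjusted p = 0.0261). Itgad, the leukocyte subunit outside the 39, had at most 0.104 CPM.

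The sequences before the transcription start are shown for the called members with the largest differences that have an entry, Itga8 and Itgb6 for the cochlea and Lamb3 and Itga2b for the vestibule, and for Agrn, whose libraries overlapped. They are the 250 bases before each RefSeq start in GRCm38.p6, written 5′ to 3′ on the strand of the gene. By the GENCODE vM21 coordinates, the window of Lamb3, most of that of Itga2b and a part of that of Itgb6 lie inside the annotated gene. Capitals mark the GC box GGGCGG on either strand, the letters bound by Sp1 and its relatives, where runs of capitals can hold overlapping boxes. The regions are chr2:12301945-12302194 for Itga8, chr2:60722604-60722853 for Itgb6, chr11:102469884-102470133 for Itga2b and chr4:156197489-156197738 for Agrn, all on the reverse strand, and chr1:193301744-193301993 for Lamb3, on the forward strand.
Itga8: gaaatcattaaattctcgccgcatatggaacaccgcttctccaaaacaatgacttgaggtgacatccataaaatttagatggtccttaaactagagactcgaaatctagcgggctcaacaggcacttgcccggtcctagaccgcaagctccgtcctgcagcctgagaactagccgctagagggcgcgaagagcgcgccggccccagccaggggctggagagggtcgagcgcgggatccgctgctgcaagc
Itgb6: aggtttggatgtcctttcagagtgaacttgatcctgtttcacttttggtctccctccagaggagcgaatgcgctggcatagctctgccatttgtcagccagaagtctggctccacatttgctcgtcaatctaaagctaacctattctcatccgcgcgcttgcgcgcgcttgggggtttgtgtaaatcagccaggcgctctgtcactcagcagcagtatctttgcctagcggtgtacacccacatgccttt
Lamb3: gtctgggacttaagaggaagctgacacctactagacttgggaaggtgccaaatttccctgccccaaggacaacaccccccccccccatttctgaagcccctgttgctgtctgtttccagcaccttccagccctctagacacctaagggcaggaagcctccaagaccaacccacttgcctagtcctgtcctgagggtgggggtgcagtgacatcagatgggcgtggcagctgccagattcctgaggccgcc
Itga2b: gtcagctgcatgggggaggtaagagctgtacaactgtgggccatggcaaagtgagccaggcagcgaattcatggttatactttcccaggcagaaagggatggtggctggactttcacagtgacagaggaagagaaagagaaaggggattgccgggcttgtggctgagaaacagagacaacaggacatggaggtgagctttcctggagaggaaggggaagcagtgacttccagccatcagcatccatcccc
Agrn: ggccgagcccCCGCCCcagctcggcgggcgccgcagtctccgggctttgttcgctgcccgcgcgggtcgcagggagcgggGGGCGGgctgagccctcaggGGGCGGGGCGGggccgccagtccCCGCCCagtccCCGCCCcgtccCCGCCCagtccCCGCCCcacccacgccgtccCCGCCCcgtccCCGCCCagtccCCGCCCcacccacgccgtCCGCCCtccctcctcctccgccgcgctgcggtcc

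The sequences of Itga8, Itgb6, Lamb3 and Itga2b hold 0 GC boxes and that of Agrn holds 12, with GC contents of 56.4%, 52.0%, 58.8%, 54.0% and 83.6% in that order. Of the 39 genes 26 had an entry, and 11 of these 26 held a GC box, against 33.0% of all 27025 promoters of the same length. A GC box was found for 6 of 11 called members, among them Hspg2 with 5, and for 5 of 13 tested members that did not pass. The CCAAT box (CCAAT, both strands) was found in 4 of 26 members (Itgax, Itgb8, Lamb1 and Nid1) and in 34.5% of all promoters. The TATA box (TATAAA, both strands) was found in 0 of 26 members and in 13.0% of all promoters. These are matches of letters in this window. The members without an entry were Lama1, Lama3, Lama4, Lamc1, Lamc3, Nid2, Itga6, Itga7, Itgae, Itgal, Itgb2, Itgb3 and Itgb4.

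Laminins are also bound by receptors other than integrins. Of 13 genes on a list of such receptors and their partners, which also holds the hyaluronan receptor Cd44, 2 were higher in the vestibule and 1 in the cochlea. These shares are near the 15.8% and 11.6% of all genes tested. Bcam, a receptor for Lama5, had 83.4, 82.4 and 92.5 CPM in the cochlea and 209.9, 222 and 214 CPM in the vestibule, and its log2 fold change was 1.204 (SE 0.12, edgeR adjusted p = 0.000130). Sdc2, a syndecan of mesenchymal cells, had a log2 fold change of 1.12 (SE 0.13, edgeR adjusted p = 0.000387). Cd44 was the gene higher in the cochlea with a log2 fold change of -1.65 (SE 0.16, edgeR adjusted p = 0.000111). With library size alone the split was 5 to 1, and without cochlea 3 it was 2 to 2. Dag1, the dystroglycan gene and the main receptor of this kind, had 408, 442 and 444 CPM in the cochlea and 472, 394 and 457 CPM in the vestibule, which overlapped (log2 fold change -0.09, adjusted p = 0.679).

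Proteins that bind the cytoplasmic tails of integrins link them to actin and to kinases. Of 24 such genes tested 8 were higher in the vestibule and 1 in the cochlea, against 15.8% and 11.6% of all genes tested. The largest differences were those of Fermt3, the kindlin of blood cells, at 2.21 (SE 0.21, edgeR adjusted p = 0.000108), Ptk2b, a kinase of the focal adhesion family, at 1.99 (SE 0.18, edgeR adjusted p = 9.83e-05), and Lims2, an adaptor of integrin-linked kinase, at 1.99 (SE 0.37, edgeR adjusted p = 0.00411). Lims2 had under 1 CPM in every cochlear library and entered the test only through the vestibule. Tns3, a tensin, was the gene higher in the cochlea, at -0.604 (SE 0.18, edgeR adjusted p = 0.0376), and did not pass with library size alone or without cochlea 2, vestibule 2 or vestibule 3. Fermt2 and Ptk2, the kindlin and the kinase of most other cells, had log2 fold changes of 0.03 (adjusted p = 0.886) and -0.25 (adjusted p = 0.141). The count in the vestibule fell to 5 without vestibule 1 or vestibule 2. Ilk had at most 0.312 CPM and was not tested. Of its exon bases 89.7% are shared with Rrp8 and Taf10 on the other strand. The strand setting of the counting is not known, so this value may not measure its expression.

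Other ligands of integrins moved both ways. Of 11 tested, 3 were higher in the vestibule and 4 in the cochlea, against 15.8% and 11.6% of all genes tested, with a median log2 fold change of -0.12. Spp1, osteopontin, had 206, 146 and 46.1 CPM in the cochlea and 411, 431 and 661 CPM in the vestibule, a log2 fold change of 1.80 (SE 0.48, edgeR adjusted p = 0.0228). Thbs1, a thrombospondin, had a log2 fold change of 1.35 (SE 0.18, edgeR adjusted p = 0.000703). Egfl6, an RGD protein of the basement membrane that Itga8 binds, had 33.2, 42.9 and 37.6 CPM in the cochlea and 18.7, 17.7 and 16.8 CPM in the vestibule, and was higher in the cochlea at -1.22 (SE 0.15, edgeR adjusted p = 0.000459). The groups of these 3 genes did not overlap, whereas some of the other called genes had overlapping libraries. The count in the vestibule was 1 without cochlea 2 or vestibule 3, and the count in the cochlea was 2 with library size alone and without cochlea 2, vestibule 2 or vestibule 3.

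Markers of the other cell types were higher in the cochlea for some lists and in the vestibule for others, beside 15.8% of all genes tested that were higher in the vestibule and 11.6% in the cochlea. Supporting cell markers had 4 of 6 higher in the cochlea and 0 in the vestibule (sums of 702 to 833 CPM and then 606 to 748 CPM), led by Hes5 (-3.43), Jag1 (-1.50) and Prox1 (-0.89). Neuronal markers had 3 of 6 higher in the cochlea and 0 in the vestibule (sums of 163 to 529.7 CPM and then 103 to 316 CPM), led by Tubb3 (-2.54), Elavl4 (-2.53) and Stmn2 (-2.39). Cartilage markers had 1 of 6 higher in the cochlea, Matn1 (-4.60), and 3 in the vestibule (sums of 10455 to 17814 CPM and then 12984 to 16387 CPM), among them Acan (3.52) and Comp (2.099). Hair cell markers had 3 of 6 higher in the vestibule and 0 in the cochlea (sums of 522 to 715 CPM and then 901 to 1184 CPM), namely Gfi1 (2.19), Otof (2.08) and Pou4f3 (0.65). All 5 melanocyte markers were higher in the vestibule (sums of 31.0 to 59.99 CPM and then 272 to 336 CPM), led by Tyrp1 (6.07), Mlana (4.99) and Pmel (2.47). Tyrp1, Mlana and Comp had under 1 CPM in every cochlear library, and Hes5 in every vestibular one. Each of these entered the test only through the tissue where it was higher. None of the 4 red blood cell markers tested passed (sums of 120.2 to 331 CPM and then 203 to 276 CPM), nor did any of the 3 skeletal muscle markers tested. The part of these cells in the results for the integrins was not tested.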

How the data were processed

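RNA of 3 cochlear and 3 vestibular libraries was sequenced as 100-base pairs after a stranded mRNA preparation. Per the labels and methods, the authors aligned reads to GRCm38 with TopHat2 2.1.0 (SAMtools 0.1.18) and counted genes with HTSeq 0.5.4p5. The deposited whole-number counts are not normalized, and the counter's strand setting is not given in the sources used here. The 5 summary lines (18.5% to 20.6% of listed counts) were left out of library sizes. The deposited log2 RPKM matrix (edgeR 3.4.2) matched counts over library size and 1 length per gene, and RPKM are its antilog. Its length for Itgam, 6348 bases, exceeds the 5024 exon bases of GENCODE vM21, so no level of Itgam is compared per length.

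Genes with at least 1 CPM in 3 libraries were tested with edgeR 4.0.16 (quasi-likelihood, TMM, tissue as the only term, R 4.3.3) at an FDR of 0.05, after tests on simulated data. CPM are per counts on genes without TMM. SE is the log2 fold change over the root of F. Chain shares used exact permutation tests (scipy 1.17.1). Intervals from counting are not given, since library spread exceeds them. Coordinates are from GENCODE vM21.

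The members and lists were chosen with earlier results of these data known. All 39 members are reported. Called members, and the 3 highest by RPKM in each class, are given in full. Of other lists, the 3 called genes with the largest log2 fold changes are named. Itgad and the genes shown as sequence were named outside that rule or after values were seen, as were Npnt, Fn1, Dag1, Fermt2, Ptk2 and Ilk. Alternatives were other scalings, filters and tests (DESeq2 1.42.0, limma-voom 3.58.1), a replicate block and each library left out. Ahsp, on the red blood cell list, matched no identifier. The results of some related genes and marker genes are not reported here.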

Additional observations from a re-analysis of the deposited data

How the results depend on the processing

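Of the 18 members called, 11 stayed past the threshold under all 17 alternative fits that gave them a value, and 0 changed direction. The others, Lamb1, Lamc3, Nid1, Hspg2, Itga3, Itga6 and Itgal, lost their call under at least 1. Of the 18 members not called, 6 passed under some alternative and 7 changed sign under some. Lamb3, Itga2, Itgal and Itgb2 had no value with a filter of 5 CPM. The fit with the length trend removed from each library was chosen after seeing the data. The cause of these changes was not tested.

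For log2 fold changes that turned, Agrn was 0.0198 with the 5 CPM filter, 0.12 with library size alone, 0.0137 with upper quartile scaling and -0.12 to 0.11 with 1 library left out. Itga4 was 0.00832 with the 5 CPM filter, 0.104 with library size alone, 0.0147 with limma-voom and -0.20 to 0.15 with 1 library left out, and Itga1 was 0.0265 with library size alone and -0.41 to 0.0944 with 1 left out. The same range was -0.13 to 0.29 for Itga2, -0.0709 to 0.40 for Itga10, -0.0144 to 0.37 for Itga11 and -0.00657 to 0.14 for Itgb5.

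Of the counts over all genes, 1342 to 2694 were higher in the vestibule and 925 to 1863 in the cochlea with 1 library left out, each lowest without vestibule 2 and also low without vestibule 1 (1522 in the vestibule) and without cochlea 2 (1035 in the cochlea). For the ligands higher in the cochlea the count was 1 with library size alone, 1 with the 5 CPM filter and 0 to 1 with 1 library left out (0 without vestibule 2). For non-integrin laminin receptors it was 5 in the vestibule with library size alone, and 2 in the cochlea with DESeq2 or with the length trend removed and 1 to 2 with 1 library left out. For cytoplasmic partners it was 0 in the cochlea with library size alone, and 5 to 9 in the vestibule and 0 to 1 in the cochlea with 1 library left out. For other integrin ligands it was 2 in the cochlea with library size alone, and 1 to 2 in the vestibule and 2 to 4 in the cochlea with 1 library left out. In CPM in place of RPKM the share differences were -12.7 percentage points for Itga6, -69.0 for Itga8 and 10.3 for Itgb5. With 1 library left out they were -8.91 to 5.06 for Lama5 and -2.40 to 7.70 for Itga11.

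Same-numbered libraries did not deviate together from the tissue means. The correlations of their deviations were -0.175, -0.260 and -0.475 over 14723 genes, and cochlea 1, 2 and 3 correlated best with vestibule 3, 3 and 2. These deviations also hold the library differences in long transcripts, so they cannot show whether same-numbered libraries share animals or a preparation. With the replicate block, 1609 genes were higher in the vestibule and 1009 in the cochlea, against 2325 and 1711. The counts were then 5 and 0 for ligands, 5 and 2 for receptors, 2 and 1 for non-integrin laminin receptors, 5 and 0 for cytoplasmic partners and 1 and 2 for other integrin ligands, vestibule then cochlea. Lamb1, Lamc3, Nid1, Hspg2, Itga3 and Itga6 did not pass in that fit, and the log2 fold change of Itga4 was 0.00525. At this depth, values near the limit of 3 counts (0.0891 to 0.123 CPM) cannot be told apart.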
